A study of Mus musculus with 4 samples.

Results

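The protein disulfide isomerases and oxidases of the endoplasmic reticulum (ER) were compared between fasted and refed mouse liver. The genes were P4hb, Pdia3, Pdia4, Pdia5, Pdia6, Ero1l, Ero1lb, Txndc5 and Txndc11, taken by their names in the array files. They were 9 of the 31829 names that gene spots carried on the array, and they were measured by 11 probes. All 11 probes were bright enough to be kept, among 19721 kept probes that carried 16085 names. Ero1l and Ero1lb are the names of the array's design and are now called Ero1a and Ero1b.

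Secreted and membrane proteins gain their disulfide bonds in the lumen of the ER. Protein disulfide isomerases, thioredoxin-fold enzymes with cysteine pairs in their active sites, form these bonds in client proteins and rearrange wrong ones, and the ERO1 oxidases reoxidise the isomerases at the expense of molecular oxygen. The hepatocyte exports albumin, clotting factors and lipoproteins rich in disulfide bonds. Genes of the family are known targets of the unfolded protein response, through the factors ATF6 and XBP1.

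The livers came from male mice of the strain labelled C57/Bl6 (C57BL/6J in the growth protocol), 8 to 12 weeks old. Mice of the fasted group had no food for 24 h, and mice of the refed group had food for 2 h after the same 24 h fast, so that both groups had been fasted and no group fed throughout was compared here. RNA of 4 fasted and 4 refed livers, 200 ng each, was hybridised to 4 two-colour oligonucleotide arrays, on which 2 dyes, Cy5 (red) and Cy3 (green), share each spot. Fasted and refed livers were matched at random, 1 of each to an array, and an array counts as a replicate (n = 4). The fasted liver carried Cy5 on replicates 1 and 2 and Cy3 on replicates 3 and 4. Ratios are given as log2 of fasted relative to refed liver, negative where the fasted liver was the lower one. Levels are log2 intensities of one channel, after a step that brings the arrays to a common distribution of average intensity. In bulk liver, fewer cells of a type and less RNA per cell cannot be told apart.

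The 4 arrays lay on 1 slide, and their median spot brightness was 40 to 75 in the red channel and 44 to 96 in the green, over local backgrounds with medians of 25 to 35 and 20 to 33. None of the spots of these genes was flagged or saturated. Hepatocyte markers were kept for 6 of 6 genes, of which Tat, the enzyme tyrosine aminotransferase, was called higher in fasted liver at 0.84 (adjusted p of 0.0451 in limma). The mean over the 3 kept red blood cell markers was 1.73, -0.27, 1.99 and 0.20 on replicates 1 to 4, and none of them was called. Pancreatic acinar markers stood apart in the refed liver of replicate 3: all 13 on the array were well above background there, and the median ratio over the 13 was -3.79 on that array, against 0.011, -0.018 and -0.031 on replicates 1, 2 and 4. The pancreatic isomerase Pdia2, one of these markers, had a ratio of -4.50 on replicate 3, where the other arrays gave -0.0073 to 0.090, and was not kept. Values without replicate 3 are therefore given below. Of the 5 markers of plasma cells, which also make much disulfide-bonded protein, 1 was kept, Sdc1, at a ratio of 0.25. Hepatocytes express it too.

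Calls required both a limma p, adjusted over all kept probes, of less than 0.10 and 1.5-fold or more, and each gene was judged by the brightest of its kept probes. Of the 9 genes, 6 were called lower in fasted liver, none was called higher, and 3 were not called. The 6 were Pdia6, Pdia4, Ero1lb, Pdia3, Txndc5 and Txndc11. Over all kept probes, 2.08% were called lower (410 probes) and 1.7% higher (335 probes). The median ratio of the 9 genes was -0.64, against -0.00099 over all kept probes, and all 9 means were below 0. Array by array, the median of the 9 was -0.77, -0.85, -0.54 and -0.68 on replicates 1 to 4. On replicate 1, 8 of the 9 were below 0, and on each of the other arrays 9 were.

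Counted by probe, 7 of the 11 were called lower. With no limit on the fold, 8 probes had an adjusted p under 0.10 in limma and were lower, which is true of 6.13% of all kept probes. All 4 fasted levels lay below all 4 refed levels for 9 of the 11 probes, a pattern of 7.79% of kept probes. The same number, 9 of 11, had a ratio below 0 on all 4 arrays, as did 16% of kept probes. These calls depended on how spots of extreme local background were handled. With such spots left out before the correction, 6 genes were called. When they were kept, 0 were called, and the median ratio of the 9 genes was -0.58. Calls were then few on the whole array, with 15 of 19737 kept probes lower. Ero1lb was then at -0.60 in place of -0.98, the dimmer Pdia6 probe at -0.49 in place of -1.06 and Pdia4 at -0.77 in place of -1.07, while the brighter Pdia6 probe was at -1.17 and Pdia3 at -0.81. With plain subtraction of the background, with no correction and with the deposited log2 ratios, 6 were called. The deposited ratios correlated less well with the normexp and loess ratios on replicate 1 (Pearson's r of 0.53 across spots) than on the others (0.92 to 0.96), and the cause was not tested.

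**Figure D1:**
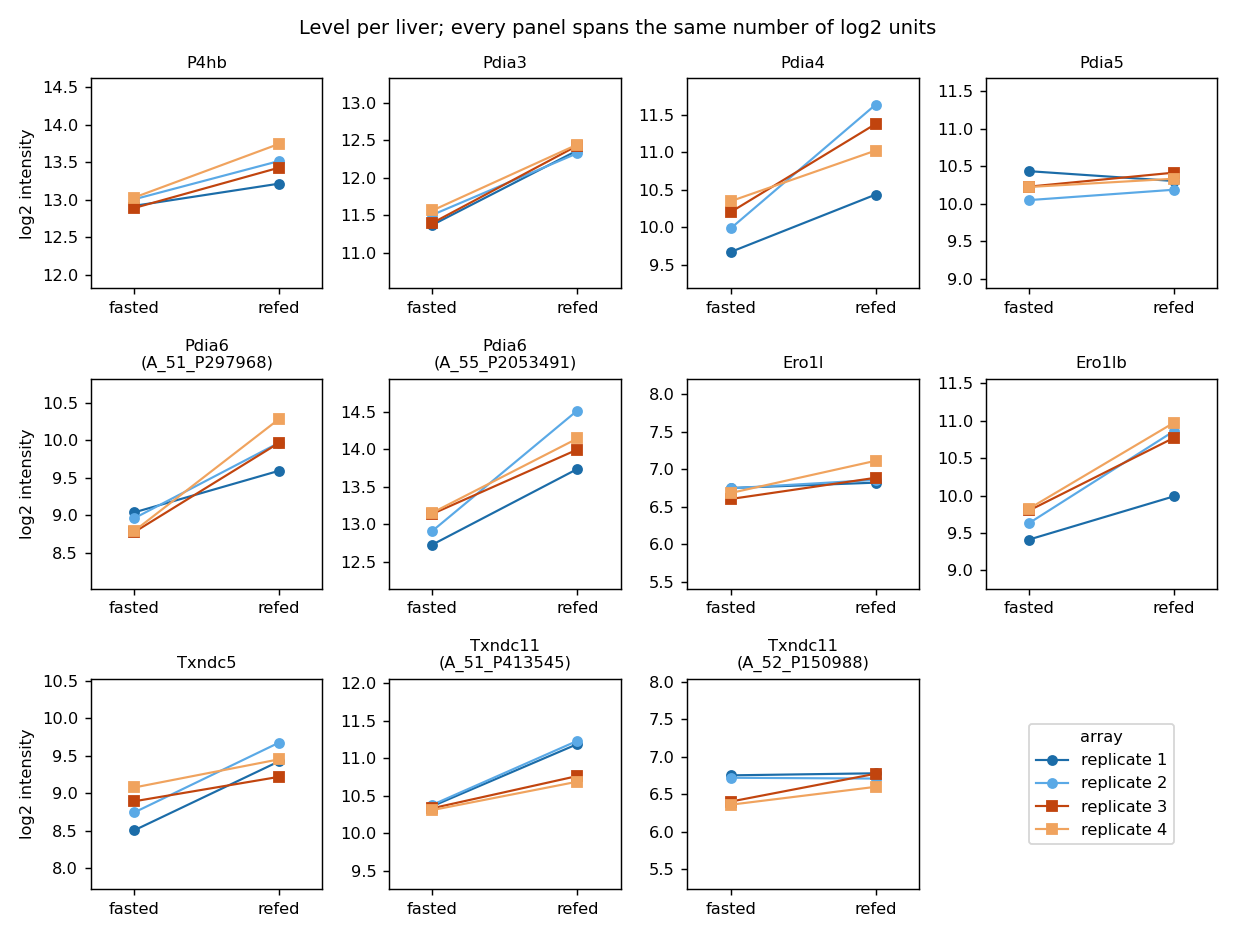
Level of each probe in every liver, as log2 intensity, with the fasted and the refed liver of one array joined by a line. Circles are arrays with the fasted liver in Cy5 and squares those with it in Cy3. Each panel has its own position on the axis but the same height. For 9 of the 11 probes all lines rise from fasted to refed and the lines of Pdia5 and the dimmer Txndc11 probe run both ways.

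Among the isomerases, Pdia6 (also known as P5) had the lowest ratio. It belongs to the complexes of ER chaperones around Hspa5 and carries a pair of catalytic thioredoxin domains. Its brighter probe, A_55_P2053491 on chromosome 12 at 17291070 to 17291129 of the mm9 build, had fasted levels of 12.73, 12.91, 13.14 and 13.16 and refed levels of 13.74, 14.52, 14.00 and 14.15 on replicates 1 to 4. No fasted level reached the lowest refed level, and the gap was widest on replicate 2. The ratio was -1.12 ± 0.33 (SD, n = 4; adjusted p of 0.0124 in limma), which puts the fasted level at 46.2% of the refed level. A dimmer probe of the same gene, A_51_P297968, lies further along the transcript on chromosome 12 at 17291323 to 17291382. Its fasted levels were 9.04, 8.96, 8.77 and 8.79 and its refed levels 9.59, 9.97, 9.96 and 10.28. Its mean ratio, -1.06 ± 0.39 (SD, n = 4; adjusted p of 0.0180 in limma), differed from that of the brighter probe by less than the spread between arrays. The order of the arrays was another one, however, with the widest gap on replicate 4, and the probes differed in opposite directions on replicates of opposite dye orientation, by -0.053 ± 0.55 on average with the brighter one lower on 2 of 4 arrays.

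Pdia4 (ERp72), an isomerase with an additional catalytic domain, was called lower with the widest spread of the called genes. Its probe lies on chromosome 6 at 47746516 to 47746575 of mm9. Fasted levels were 9.67, 9.99, 10.21 and 10.35, and refed levels were 10.44, 11.64, 11.38 and 11.03. The groups did not overlap, but the refed liver of replicate 1 lay only just above the highest fasted one. Its ratios of -0.77, -1.65, -1.18 and -0.68 gave a mean of -1.07 ± 0.45 (SD, n = 4; adjusted p of 0.0225 in limma), or 47.8% of the refed level. Without replicate 3 the ratio was -1.03 and the adjusted p rose to 0.100402, just past the limit.

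Pdia3 (ERp57), which works on glycoproteins held by calnexin and calreticulin, had the tightest values of the 9 genes. Its probe lies on chromosome 2 at 121263343 to 121263402 of mm9. The fasted levels were 11.37, 11.51, 11.40 and 11.57, and the refed levels 12.37, 12.33, 12.43 and 12.45. Each group kept within a fraction of the distance between them. The ratio was -0.93 ± 0.097 (SD, n = 4; adjusted p of 0.0043 in limma), or 52.5% of the refed level, and all 4 arrays passed 1.5-fold on their own.

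Txndc5 (ERp46), an isomerase with several thioredoxin domains, was called lower at a smaller size. Its probe lies on chromosome 13 at 38592680 to 38592739 of mm9. Its levels were 8.51, 8.75, 8.89 and 9.08 in fasted liver and 9.43, 9.68, 9.22 and 9.45 in refed liver. The groups did not overlap, but replicates 1 and 2 had wide gaps and replicates 3 and 4 narrow ones. The mean ratio was -0.64 ± 0.33 (SD, n = 4; adjusted p of 0.0463 in limma), or 64.2% of the refed level. Without replicate 1 it was -0.54 (adjusted p of 0.107) and without replicate 2 also -0.54 (adjusted p of 0.148), and the call was lost both times.

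P4hb, the archetypal protein disulfide isomerase, which also serves as the subunit of prolyl 4-hydroxylase and of the microsomal triglyceride transfer protein, was not called. Its probe lies on chromosome 11 at 120422076 to 120422135 of mm9. Fasted levels were 12.92, 13.01, 12.89 and 13.03, and refed levels were 13.22, 13.52, 13.43 and 13.75. All fasted levels lay below all refed ones, and the gene passed the limit on p but not that on size. The ratio was -0.52 ± 0.17 (SD, n = 4; adjusted p of 0.0292 in limma), and its 95% interval of -0.73 to -0.30 spans the 1.5-fold limit of -0.58. Normalized by centring each array on its median instead of by loess, the ratio was -0.67 and the gene was called. It was also called without replicate 1, at -0.59.

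Pdia5 (PDIR), the remaining isomerase, was not called either. Its probe lies on chromosome 16 at 35407720 to 35407779 of mm9. Its fasted levels of 10.43, 10.05, 10.23 and 10.22 overlapped its refed levels of 10.30, 10.18, 10.41 and 10.33, and the fasted liver was the brighter one on replicate 1. The ratio was -0.076 ± 0.14 (SD, n = 4; adjusted p of 0.67 in limma), with a 95% interval of -0.28 to 0.12 that stays inside 1.5-fold in both directions. Its spots were between 801 and 1704 units bright before background removal, against local backgrounds of 20 to 34, so the probe was not a dim one.

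The sequences of the Pdia3, Pdia4 and Pdia5 probes, from the array files, are shown because these probes span the range from the tightest called ratio to the one nearest 0. Each has 60 bases, given in the sense of the transcript, and each has exactly 1 reading frame free of stop codons. The GC contents are 35%, 43.3% and 45%. The files give no exon or UTR for a probe.
Pdia3 probe: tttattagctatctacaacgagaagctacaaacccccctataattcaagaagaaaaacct
Pdia4 probe: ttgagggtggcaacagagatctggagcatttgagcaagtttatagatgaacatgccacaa
Pdia5 probe: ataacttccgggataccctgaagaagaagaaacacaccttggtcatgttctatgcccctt

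Of the ERO1 oxidases, 1 was called lower. Ero1lb, the form known for its high expression in secretory cells of the pancreas, has its probe on chromosome 13 at 12701235 to 12701294 of mm9. Fasted levels were 9.41, 9.63, 9.80 and 9.83, and refed levels were 9.99, 10.86, 10.77 and 10.97. The groups did not overlap, and the refed liver of replicate 1 was the lowest of its group. The ratio was -0.98 ± 0.29 (SD, n = 4; adjusted p of 0.0131 in limma), or 50.7% of the refed level. Its ratios on replicates 1 to 4 were -0.58, -1.23, -0.97 and -1.15. Without replicate 3, where the acinar markers stood apart, the ratio was -0.98 (adjusted p of 0.0653 in limma). The part of the acinar signal in this ratio was not tested.

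Ero1l, the widely expressed form, was not called. Its probe, on chromosome 14 at 45904192 to 45904251 of mm9, was dim, with raw signals of 50.5 to 148 against local backgrounds of 24.5 to 40. Fasted levels were 6.75, 6.75, 6.60 and 6.68, and refed levels were 6.82, 6.86, 6.89 and 7.11. The groups did not overlap, but the gap between them was small. The ratio was -0.22 ± 0.16 (SD, n = 4; adjusted p of 0.205 in limma). The value moved with the background step. It was -0.049 with normexp on all spots, -0.31 with no correction, -0.33 with the deposited log2 ratios and -0.40 with plain subtraction, with no call in any of these. With the scanner software's own processed signals it was -0.61 and was called (adjusted p of 0.028 in limma), the 1 of 20 alternatives that called it. The ratio of Pdia5 stayed between -0.21 and -0.021 under all alternatives in which it was measured.

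Txndc11, a membrane-bound thioredoxin-domain protein of the ER first described as a partner of the dual oxidases, was measured by 2 probes. The brighter probe, A_51_P413545 on chromosome 16 at 11075062 to 11075121 of mm9, had fasted levels of 10.36, 10.38, 10.33 and 10.31 and refed levels of 11.19, 11.23, 10.76 and 10.69. The fasted livers lay close together and the refed ones fell into a higher pair, replicates 1 and 2, and a lower pair. Its ratio was -0.62 ± 0.25 (SD, n = 4; adjusted p of 0.0309 in limma), and the call was lost without replicate 1 (-0.55) or without replicate 2 (-0.55). The other probe, A_52_P150988, spans 5805 bases of chromosome 16, from 11117008 to 11122812, and so crosses at least 1 intron. It was dim, with raw signals of 52.5 to 90, and was well above background in 3 of 4 fasted and 4 of 4 refed livers. Its ratios of -0.027, 0.011, -0.37 and -0.24 gave a mean of -0.16 ± 0.18 (SD, n = 4; adjusted p of 0.391 in limma). The brighter probe was lower on 4 of 4 arrays, by -0.47 ± 0.43 (in an exact sign-flip test, 2 of 16 flips reach this, the smallest share that 4 arrays allow). With the scanner software's own processed signals the probes were at -0.64 (adjusted p of 0.0144 in limma) and -0.61 (adjusted p of 0.194), and the contrast between them was small. When a gene was taken by the median of its kept probes, 5 genes in place of 6 were called.

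**Figure D2:**
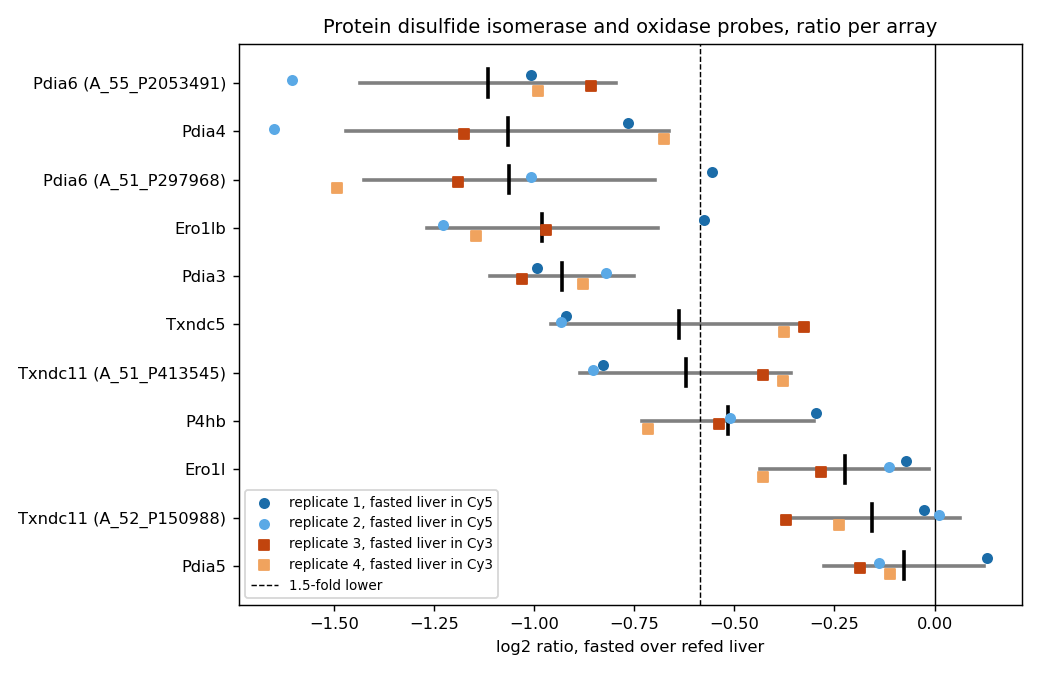
Log2 ratio of fasted over refed liver for the 11 probes, in order of their means. Points are arrays, black ticks are means and grey bars are 95% intervals from limma; the dashed line marks 1.5-fold lower. The 5 probes with the lowest means had all but 2 of their points past the dashed line, whereas Pdia5 and the dimmer Txndc11 probe had points on both sides of 0.

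Without replicate 3, the array on which acinar markers stood apart, 5 of the 9 genes were called lower, and adjusted p from limma rose with 3 arrays left. By brightest probe the ratios were -1.20 for Pdia6 (adjusted p of 0.0391), -0.98 for Ero1lb (0.0653), -0.90 for Pdia3 (0.0304), -0.74 for Txndc5 (0.0938) and -0.69 for Txndc11 (0.0909), all called. Pdia4 was at -1.03 and P4hb at -0.51 (0.127), Ero1l at -0.205 (0.475) and Pdia5 at -0.039 (0.924), none of which was called. The dimmer probes were at -1.02 for Pdia6 (0.0845, called) and -0.085 for Txndc11 (0.787).

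By mean ratio of the brightest probe the order from the lowest was Pdia6, Pdia4, Ero1lb, Pdia3, Txndc5, Txndc11, P4hb, Ero1l and Pdia5. Ratios are compared here, since levels of different probes are not comparable. Within each array, neighbours in this order were set against each other with an exact sign-flip test, two-sided, in which at least 2 of the 16 flips of 4 arrays reach the value observed, so that none of the 11 pairs compared could pass 0.05. Of the 8 neighbouring pairs, P4hb and Ero1l differed in the same direction on all 4 arrays, by -0.29 ± 0.076 (2 of 16 flips; exact p adjusted over 11 pairs, 0.458). With the scanner software's own processed signals this order turned over, P4hb being at -0.48 and the dim Ero1l probe at -0.61. The step from Pdia3 to Txndc5 was as large, at -0.29 ± 0.38, but was seen on 3 of 4 arrays. The other steps, including those among Pdia6, Pdia4, Ero1lb and Pdia3, were no larger than their SD over arrays, or nearly so for Ero1l and Pdia5 (-0.15 ± 0.15). The first and the last, Pdia6 and Pdia5, differed by -1.04 ± 0.34 and in the same direction on 4 of 4 arrays. The order came from these same ratios. The sign of each mean difference between genes was therefore fixed by the sorting, and the first and the last differ most by construction.

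Because the dye orientation was swapped between pairs of arrays, each probe has a ratio in either orientation. A dye effect, meaning a part of the ratio that keeps its sign by colour, passed an adjusted p of 0.10 for 2 of the 11 probes, against 14.8% of all kept probes. For Txndc5 the mean ratio was -0.93 with the fasted liver in Cy5 and -0.35 with it in Cy3, a dye effect of -0.29 (adjusted p of 0.0483 in limma). The bright Txndc11 probe had -0.84 and -0.404, a dye effect of -0.22 (adjusted p of 0.0768 in limma). In both genes the arrays with the fasted liver in Cy3 stayed under 1.5-fold, and which livers were paired cannot be told apart from the dye orientation with 2 arrays of each. The ratio of Pdia3 was -0.91 in one orientation and -0.95 in the other, and that of Ero1lb was -0.902 and -1.06. With a dye term in the model, 6 genes were called lower, as without it.

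**Figure D3:**
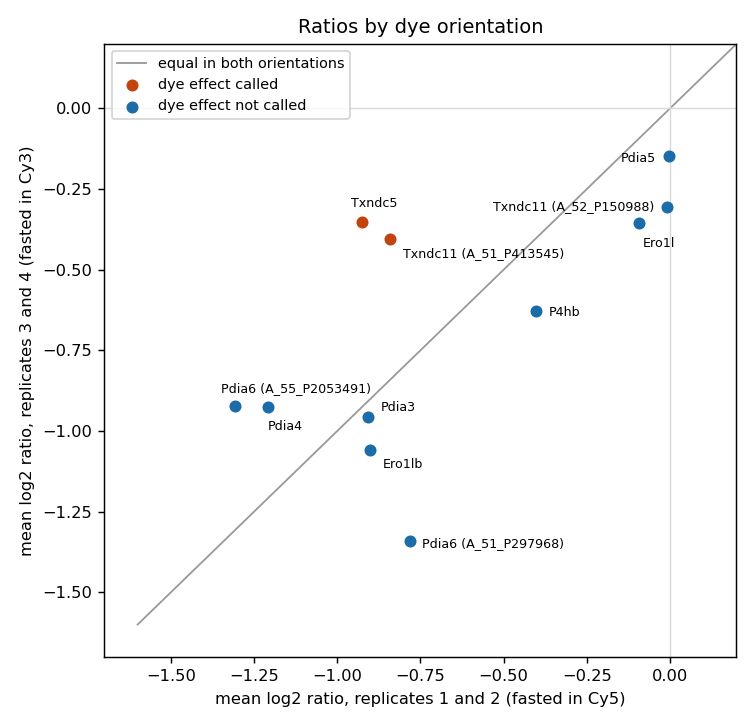
Mean log2 ratio of each probe over replicates 1 and 2 (fasted liver in Cy5, horizontal axis) against that over replicates 3 and 4 (fasted liver in Cy3, vertical axis), with the line of equality. Pdia3 and Ero1lb lie near the line, and the called dye effects of Txndc5 and the bright Txndc11 probe place these above it.

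Of 15 further members of the protein disulfide isomerase family on the array, 12 were kept, 1 was called lower (beside 2.08% of all kept probes) and none was called higher, with a median of -0.12. The one called was Pdilt, known as a testis-specific isomerase, with ratios of -1.05, -1.52, -0.60 and -0.38 and a mean of -0.89 ± 0.51 (SD, n = 4; adjusted p of 0.048 in limma), and its call was lost without replicate 1, 2 or 3. Erp44, which retains clients and the ERO1 oxidases in the early secretory pathway, was at -0.41 (adjusted p of 0.0351 in limma), Tmx2 was at -0.41 (0.0488) and Erp29 was at -0.48 (0.0882). They passed the limit on p but not 1.5-fold, and with no fold limit 4 of the 12 genes were lower (beside 6.13% of all kept probes) and none was higher. The highest of the family was Txndc16, at 0.053. Other ER oxidases and peroxidases, such as Prdx4 and the quiescin oxidase Qsox1, were kept for 5 of 7 genes with none called in either direction. Their median was 0.056, from Vkorc1l1 at -0.16 to Qsox1 at 0.17.

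Partners of the isomerases were taken as lists of their own. P4hb forms prolyl 4-hydroxylase, the enzyme of collagen maturation, with the catalytic subunits P4ha1 to P4ha3. Of its 4 partners 2 were called lower (beside 2.08% of all kept probes). P4ha1 was at -1.15 ± 0.46 (SD, n = 4; adjusted p of 0.0198 in limma), with a dimmer probe at -0.42. Its ratios were -0.65 and -0.87 on replicates 1 and 2 and -1.47 and -1.59 on replicates 3 and 4, and so separated by dye orientation. P4ha2 was at -1.07 ± 0.204 (SD, n = 4; adjusted p of 0.0057 in limma). P4ha3 was at 0.0041, and Mttp, the large subunit of the triglyceride transfer protein, was at 0.196, the highest of the list, whose median was -0.53. On every array P4ha2 lay between -1.33 and -0.85.

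Of the genes that hand glycoproteins to Pdia3, 5 of 6 were kept and 1 was called lower (beside 2.08% of all kept probes). This was Calr, the lumenal lectin chaperone calreticulin, with ratios of -1.06, -1.304, -0.60 and -0.83 and a mean of -0.95 ± 0.304 (SD, n = 4; adjusted p of 0.0152 in limma). Canx, its membrane-bound relative calnexin, was at -0.058 and -0.095 on replicates 1 and 2 and at -0.73 and -0.79 on replicates 3 and 4 (mean of -0.42, adjusted p of 0.176 in limma). Its values thus separated by dye orientation. The highest of the list was Tapbp, the tapasin that joins Pdia3 in peptide loading, at 0.104, and the median was -0.42.

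Thioredoxins and glutaredoxins of the cytosol, nucleus and mitochondria share the fold but not the compartment. Their list, which also held the thioredoxin reductases and Txnip, gave no lower call among 16 kept of 17 genes. The median of the list was -0.023, and the lowest was Txndc9 at -0.33. Txnip, the thioredoxin-binding arrestin, was the 1 gene called higher, at 1.66 ± 0.47 (SD, n = 4; adjusted p of 0.00915 in limma), with a second probe at 0.94. ER lumen chaperones other than the isomerases had 9 of 11 genes called lower (beside 2.08% of all kept probes). Their median was -1.55, lower than that of the 9 isomerase and oxidase genes. One of the 9 chaperones, Dnajb11, was at -1.14 by its brighter probe and at 0.51 by another kept probe, and with genes taken by the median of their probes 8 were called lower. The 6 with the lowest ratios were Creld2 (-2.94), Sdf2l1 (-2.61), Hspa5 (-2.01), Manf (-1.98), Dnajb9 (-1.64) and Hsp90b1 (-1.55), while the nucleotide exchange factor Sil1, the highest of the list, was at 0.056. Disulfide-rich proteins that the liver secretes were not called in either direction for 10 of 10 genes, with a median of 0.195 and a range from Apob at 0.0705 to Fgg at 0.37. In all, 14 genes of these lists were called, beside 2.08% of all kept probes called lower and 1.7% called higher. Of the 14, 9 were the ER lumen chaperones, and Txnip was the 1 called higher. When extreme background spots were kept, 3 were called, all of them ER lumen chaperones. Among all 19737 probes kept in that setting, 15 were called lower and 5 higher.

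**Figure D4:**
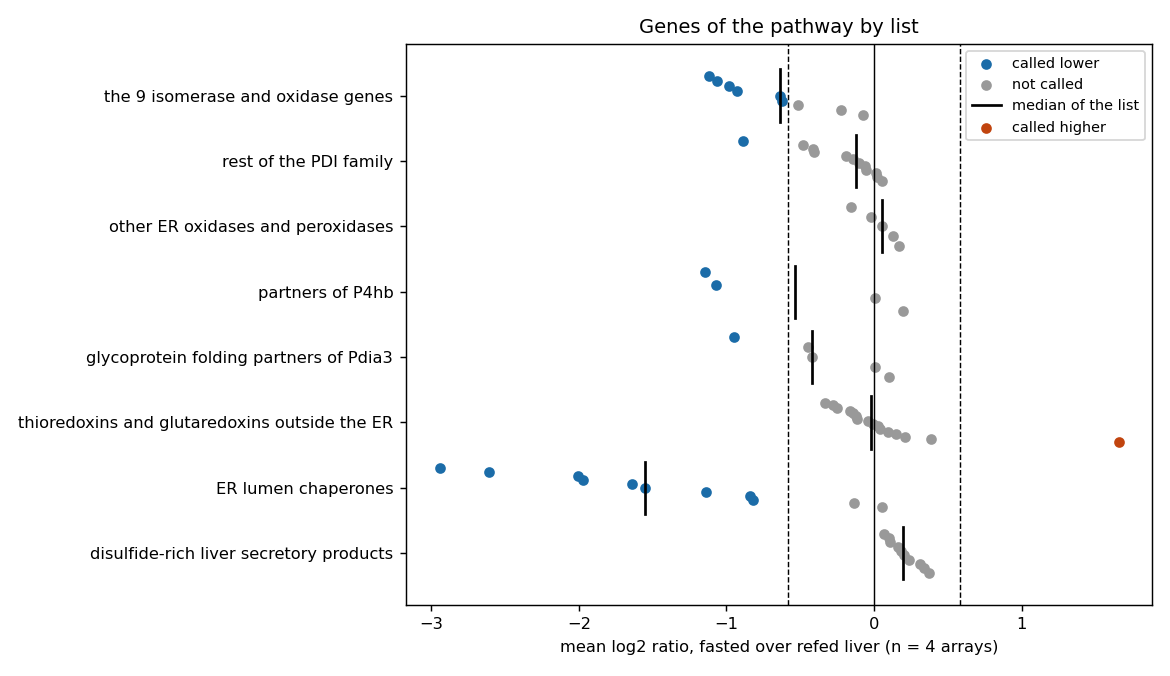
Mean log2 ratio over 4 arrays for each kept gene of the isomerase and oxidase group and of 7 lists around it, by brightest probe. Blue points were called lower, red higher and grey not called; black ticks are list medians and dashed lines mark 1.5-fold. The group lies between the ER lumen chaperones, with a median of -1.55, and the rest of the family, with one of -0.12.

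The mean profile of the 9 genes over the 4 arrays was -0.59, -0.87, -0.64 and -0.63. Among named genes outside the group, the 5 whose ratios lay nearest to it, by Euclidean distance over the 4 arrays, were Txlna (distance of 0.088), Polr2i (0.14), Bysl (0.17), Lamp3 (0.17) and Zbtb45 (0.19). All 5 were called lower, with means between -0.69 and -0.63. They were picked for lying near this profile, so their direction and size follow from the choice and are no separate result.

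Promoters of the 9 genes were searched because 6 of the 9 were called lower. RefSeq windows of the GRCm38.p6 build, each with 250 bases before and 50 after an annotated start, were found for all 9 genes, 12 windows in all, of 32851 windows. The ER stress response element (ERSE), to which ATF6 binds, was searched as CCAAT, 9 bases of any kind and CCACG, on both strands. It was found in 2 of the 9 genes, Pdia6 and Ero1lb, and in 0.137% of all 27025 genes with a window (0.119% of windows). Its CCACG part alone, which lies within every ERSE, was found in 8 of the 9 genes and in 35.5% of all genes (32.8% of windows). The cAMP response element TGACGTCA was found in none of the 9 genes and in 2.03% of all genes (1.79% of windows). Its short form TGACG was found in 4 of the 9 genes and in 23% of all genes (20.8% of windows). The unfolded protein response element core TGACGTGG, which contains this short form and, on the other strand, the CCACG part, was found in 2 of the 9 genes, Txndc5 and Txndc11, and in 0.714% of all genes (0.676% of windows). A gene counted here where any of its windows held the motif.

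The matched stretches are printed for Pdia6, Ero1lb and Txndc11, and the bases next to the start for Pdia5, whose ratio was nearest 0. They run in the direction of transcription, and capitals mark every motif match on either strand. Counted from the start, with the base before it as -1, the ERSE of Pdia6 lies at -98 to -80, in the direction of the gene. That of Ero1lb lies at -201 to -183, on the opposite strand. The core in Txndc11 lies at -102 to -95. The Pdia6 stretch is chr12:17266449-17266528 (plus strand), that of Ero1lb chr13:12565663-12565722 (plus strand), that of Txndc11 chr16:11134563-11134662 (minus strand) and that of Pdia5 chr16:35490874-35490973 (minus strand).
Pdia6: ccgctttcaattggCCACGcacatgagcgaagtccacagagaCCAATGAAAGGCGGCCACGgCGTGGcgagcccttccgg
Ero1lb: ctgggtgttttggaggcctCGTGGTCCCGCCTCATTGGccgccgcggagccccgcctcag
Txndc11: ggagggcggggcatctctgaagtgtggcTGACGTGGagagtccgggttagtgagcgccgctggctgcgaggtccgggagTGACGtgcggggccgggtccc
Pdia5: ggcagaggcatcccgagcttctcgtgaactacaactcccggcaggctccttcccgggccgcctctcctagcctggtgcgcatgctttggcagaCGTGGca

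Only exact matches to these letters were counted, and sites that differ by a base were not searched. By exact letters, Pdia3 and Pdia4, both called lower, had neither the ERSE nor the core in their windows, and Pdia5, not called, had the CCACG part at -7 to -3. No binding was measured on these arrays, and a match is a run of letters in a window.

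**Figure D5:**
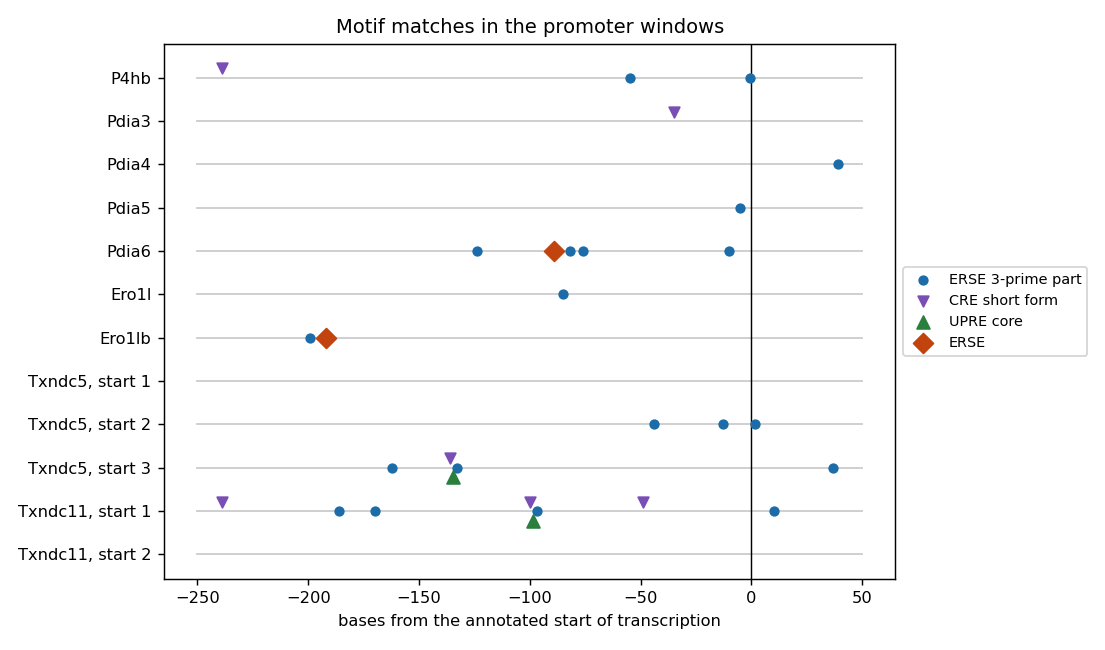
Motif matches in the 12 promoter windows of the 9 genes, placed by the bases between the middle of the match and the annotated start (vertical line at 0). Diamonds are ERSE matches, circles the 3-prime part of the ERSE, upward triangles the unfolded protein response element core and downward triangles the short form of the cAMP response element. The ERSE appears in Pdia6 and Ero1lb, and the core in Txndc11 and in the third start of Txndc5.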

How the data were processed

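Gene expression was measured in 4 fasted and 4 refed livers on 4 two-colour Agilent arrays. The scanner files deposited by the authors hold raw intensity per spot in both channels, with local background and quality flags, from Feature Extraction (10.10.1.1 per the file headers) with mm9 coordinates. A second table deposited by the authors holds log2 ratios normalized by loess in limma and already turned to fasted over refed. Its background step is not given in the sources used here, and it served as an alternative. The labels list 4 biological replicates per condition, each array pairing 1 fasted with 1 refed liver.

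Median intensity was read with limma 3.58.1 in R 4.3.3. Spots with a local background over 3 times the array's median in either channel were left out (0 to 29 per array). The rest were corrected by normexp (offset of 50) and loess was applied to each array. Ratios had no step between arrays. Levels, and the counts of levels that did not overlap, were taken after a further step between arrays (Aquantile of limma). It brings the average intensities of the arrays to one distribution and leaves the ratios as they are. Control spots, non-uniform spots and population outliers were left out (197 to 322 gene spots flagged per array), and spots of one probe were averaged. Probes well above background on all 4 arrays in at least 1 condition were kept, 19721 of 39429. The 4 ratios of each probe were fitted by lmFit and eBayes of limma (two-sided). P-values were adjusted by Benjamini-Hochberg across kept probes, and calls made at an adjusted p under 0.10 and 1.5-fold, limits that the study's methods give for SAM. A dye effect was tested as a further term. Intervals are at 95%. The number of arrays limits the precision.

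The genes, the lists around them, the background limit and the named genes (all 9 genes, up to 6 called genes with the highest and lowest of each list, and the 5 nearest profiles) were chosen with earlier results of these data known. The unfolded protein response element core was added to the motifs after the files had been read. Motifs were searched in RefSeq promoter windows of GRCm38.p6, and probes were named through RefSeq accessions where possible (26055 probes). The steps were tested on simulated data. Alternatives covered background, normalization, filters, flags, a dye term, SAM, thresholds, the probe taken for a gene, and each replicate left out in turn.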

Additional observations from a re-analysis of the deposited data

Results flagged for a closer look

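Of 27 results scanned for a liver pair far from the other 3, 1 stood apart, where chance alone marks about 1 in 20. It was the mean ratio of the pancreatic acinar markers, at 0.048, 0.039, -3.26 and 0.056 on replicates 1 to 4 over the 4 markers kept, with a gap of 0.995 of the whole range. Markers of pancreatic acinar cells were thus brighter in the refed liver of replicate 3. The 9 isomerase and oxidase genes had a median of -0.54 on that array, where the others gave -0.85 to -0.68. Without replicate 3, 5 of the 9 genes were called lower, and the median of the 9 was -0.74. Of all 19721 kept probes, 256 were called lower without that array, against 410 with it. No ratio of any of the 11 isomerase and oxidase probes stood apart in this way.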

How the results depend on the processing

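The number of isomerase and oxidase genes called lower was 6 and stayed between 4 and 7 under the 21 alternatives, with these exceptions: it was 0 with normexp on all spots and 2 with a 2-fold limit. Called genes of the surrounding lists were 14, and 3 with normexp on all spots. Probes with a dye effect were 2, against 1 with plain subtraction, 1 with Agilent's processed signals and 0 with median centring, and from 0 to 2 when a replicate was left out. Neighbouring genes that differed in the same direction on all arrays were 1 pair (P4hb and Ero1l, whose order turned with Agilent's processed signals), against 2 with plain subtraction, without background correction, with Agilent's processed signals and with the deposited log2 ratios, and from 1 to 3 when a replicate was left out. Leaving out a replicate gave 4 to 6 genes called lower, the fewest without replicate 2, medians of -0.74 to -0.55 and 12 to 13 called genes of the lists. The median of the 9 genes ranged from -0.76 to -0.55 over all alternatives, and no ratio reversed. Among all kept probes, 410 were called lower and 335 higher (45.0% higher), against 15 and 5 with normexp on all spots, 635 and 230 with median centring (26.6% higher), 714 and 550 with plain subtraction, 904 and 686 with Agilent's processed signals, 1208 and 935 with no fold limit, 132 and 99 with a 2-fold limit, and 256 and 208 without replicate 3.

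Each ratio sets a fasted liver against the refed liver of its array, so every test above is already paired by array, and no unpaired fit was made. Spots dim against their background, as for Ero1l and the second Txndc11 probe, limit what a ratio near 0 shows. With 4 arrays, 2 in each orientation, dye, pairing and liver cannot be separated for a single array.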
